A study of Mus musculus with 2 samples.

Results

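The genes described here are the 4 MEF2 transcription factor genes, Mef2a, Mef2b, Mef2c and Mef2d, and the 4 genes of the class IIa histone deacetylases, Hdac4, Hdac5, Hdac7 and Hdac9. They are 8 of the 55536 genes in the deposited tables and were matched by symbol, a rule that uses no measured value. Hdac6 and Hdac10, the class IIb deacetylases, are not among them. The libraries came from whole heart of male B6CASTF1/J mice, an F1 cross of B6 and CAST, taken at 36 days of age. Ribosomal RNA had been reduced, 300 ng of RNA went into each stranded library, and synthetic ERCC RNAs were added. There was 1 group without treatment and 2 biological replicates, called hearts here, which carry the same donor entry and held 41846508 and 42481559 expected counts. The labels do not say if that entry means 1 animal, so the spread between them may be partly technical. Levels are written as mean ± SD of both hearts (n = 2 in every case). No p is given, since 2 libraries of 1 group leave nothing to test.

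MEF2 factors bind DNA as dimers through a MADS box and the adjoining MEF2 domain, and drive genes of muscle contraction and metabolism. Class IIa deacetylases have weak enzyme activity of their own, bind MEF2 at its target genes and recruit corepressors there. When calcium-dependent and other kinases phosphorylate them, 14-3-3 proteins hold them in the cytoplasm and MEF2 is freed, a switch known from growth of the stressed heart.

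MEF2 proteins exist in forms that differ by exons spliced as alternatives just after the MEF2 domain. Mef2a, Mef2c and Mef2d each carry a pair of such exons, as a rule used one or the other. The 4 exons of Mef2c and Mef2d are shown because the hearts used these pairs unequally or without a settled lead. The letters are the reference transcripts of GENCODE M21 on mm10, read 5′ to 3′ on the gene's strand, and capitals mark bases not matched in the other exon of the same pair. The Mef2c exons lie at chr13:83625265-83625408 and chr13:83625470-83625607 (plus strand), and those of Mef2d lie at chr3:88158034-88158171 and chr3:88158221-88158355 (plus strand). All 4 are coding exons.
Mef2c first exon: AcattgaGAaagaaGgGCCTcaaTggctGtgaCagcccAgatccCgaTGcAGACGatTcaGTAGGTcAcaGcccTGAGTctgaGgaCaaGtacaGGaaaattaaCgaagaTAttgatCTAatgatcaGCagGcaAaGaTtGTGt
Mef2c second exon: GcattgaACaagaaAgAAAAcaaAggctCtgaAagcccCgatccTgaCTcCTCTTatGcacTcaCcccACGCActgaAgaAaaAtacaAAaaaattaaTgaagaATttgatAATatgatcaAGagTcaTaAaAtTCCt
Mef2d first exon: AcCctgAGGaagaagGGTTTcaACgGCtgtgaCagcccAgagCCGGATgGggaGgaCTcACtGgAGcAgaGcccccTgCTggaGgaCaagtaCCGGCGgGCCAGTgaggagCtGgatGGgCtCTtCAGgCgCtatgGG
Mef2d second exon: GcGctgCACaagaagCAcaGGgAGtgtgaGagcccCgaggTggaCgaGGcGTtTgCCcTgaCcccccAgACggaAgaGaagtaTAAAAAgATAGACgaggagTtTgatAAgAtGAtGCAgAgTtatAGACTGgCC
Within a gene the first and second exon matched at 62.5% of alignment positions in Mef2c and 51.4% in Mef2d, with gap positions counted. Across these genes the second exons matched at 90 of 138 positions (65.2%) and the first exons at 92 of 144 (63.9%), gaps again counted.

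Further on, the same 3 genes hold a short exon, known as the beta exon and enriched in striated muscle and brain, that is included or skipped whole. It is shown in capitals between 15 bases of the exon on each side, as joined in the transcript. It spans 24 nt in Mef2a (chr7:67244521-67244544) and Mef2c (chr13:83654598-83654621) and 21 nt in Mef2d (chr3:88161781-88161801).
Mef2a short exon: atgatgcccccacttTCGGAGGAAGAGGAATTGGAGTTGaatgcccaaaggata
Mef2c short exon: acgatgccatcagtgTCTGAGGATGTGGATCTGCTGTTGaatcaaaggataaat
Mef2d short exon: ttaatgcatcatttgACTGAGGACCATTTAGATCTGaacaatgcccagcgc
Hdac9 is shown at the point where its transcripts part. The short ending reads on past the shared exon (lower case, its last 30 bases) into 51 nt with a stop codon (chr12:34373827-34373877, minus strand), so the deacetylase domain is left out. This form is known as MITR. The long ending joins the next coding exon, of which the first 51 nt are in capitals (chr12:34312661-34312711).
Hdac9 short ending: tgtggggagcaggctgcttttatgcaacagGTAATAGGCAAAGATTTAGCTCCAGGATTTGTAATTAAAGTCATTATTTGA
Hdac9 long ending: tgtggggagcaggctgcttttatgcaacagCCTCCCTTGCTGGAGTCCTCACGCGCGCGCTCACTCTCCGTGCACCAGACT

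The MEF2 family in these hearts was mainly Mef2a and Mef2d. Mef2a (chromosome 7, 67231163 to 67372858), which in the heart is known for postnatal muscle upkeep and mitochondria, stood at 49.2 TPM in replicate 1 and 46.6 TPM in replicate 2. TPM is a level scaled for transcript length and library size, so genes can be set side by side. Mef2d (chromosome 3, 88142372 to 88172086), a factor tied to stress-dependent growth of the heart, had 40.8 and 45.3 TPM. Both Mef2a values lay above both Mef2d values, by a narrow margin. Mef2c (chromosome 13, 83504034 to 83667080), required for heart formation in the embryo, was lower in both libraries at 20.5 and 21.3 TPM. Mef2b (chromosome 8, 70139711 to 70167488), best known from B lymphocytes, had 4 and 7 expected counts, or 0.11 and 0.18 TPM. A count of 0 would allow up to 3 counts, so Mef2b was just above the limit of these libraries.

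As shares of the family's summed TPM, Mef2a held 42.8% ± 2.41, Mef2d 38.4% ± 2.17, Mef2c 18.7% ± 0.197 and Mef2b 0.129% ± 0.0419. The second deposited quantification, made by another method from the same reads, gave almost the same split, with 42.5% for Mef2a, 38.8% for Mef2d and 18.6% for Mef2c. The Mef2b reads are uncertain. Exons of Mef2b and Borcs8, which lie on the same strand, share 62 bases, and Borcs8 had 200 and 190 expected counts. Lymphocyte markers were low as well, with 0 of 6 at 1 TPM in both hearts and a summed level of 1.35 and 3.13 TPM in replicates 1 and 2. None of the 6 was at 0, and their part in the Mef2b counts was not tested.

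Hdac5 led the class IIa deacetylases. Hdac5 (chromosome 11, 102194432 to 102230166), a calcium-responsive repressor of cardiac growth, stood at 46.7 and 52.2 TPM. Hdac4 (chromosome 1, 91928779 to 92195699), best known from cartilage and muscle, followed at 16.8 and 17.9 TPM. Hdac7 (chromosome 15, 97792664 to 97844502), needed for the integrity of blood vessel walls, had 11.3 and 13.7 TPM. Hdac9 (chromosome 12, 34047580 to 34917095), another repressor of cardiac growth, was the lowest at 6.24 and 6.72 TPM. No values overlapped between these 4 genes. Endothelial markers were well represented, with 6 of 6 detected and a summed level of 226 and 260 TPM, and their part in the Hdac7 level was not tested. Whether a level reflects the number of cells of a type or the RNA in each cannot be told apart in whole tissue.

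Of the 4 deacetylases Hdac5 held 57.7% ± 0.0192 of the summed TPM, Hdac4 20.2% ± 0.682, Hdac7 14.5% ± 0.862 and Hdac9 7.57% ± 0.199. The lead of Hdac5 was present in both quantifications, but its size was not stable. It held 48.9% in the second quantification, 43.7% by expected counts, and 36.1% when only protein-coding transcripts were summed. The MEF2 family summed to 110.5 and 113.4 TPM and the deacetylases to 80.95 and 90.5 TPM. MEF2 over deacetylase TPM was 1.37 in replicate 1 and 1.25 in replicate 2, and 2.62 and 2.44 over protein-coding transcripts alone.

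**Figure D1:**
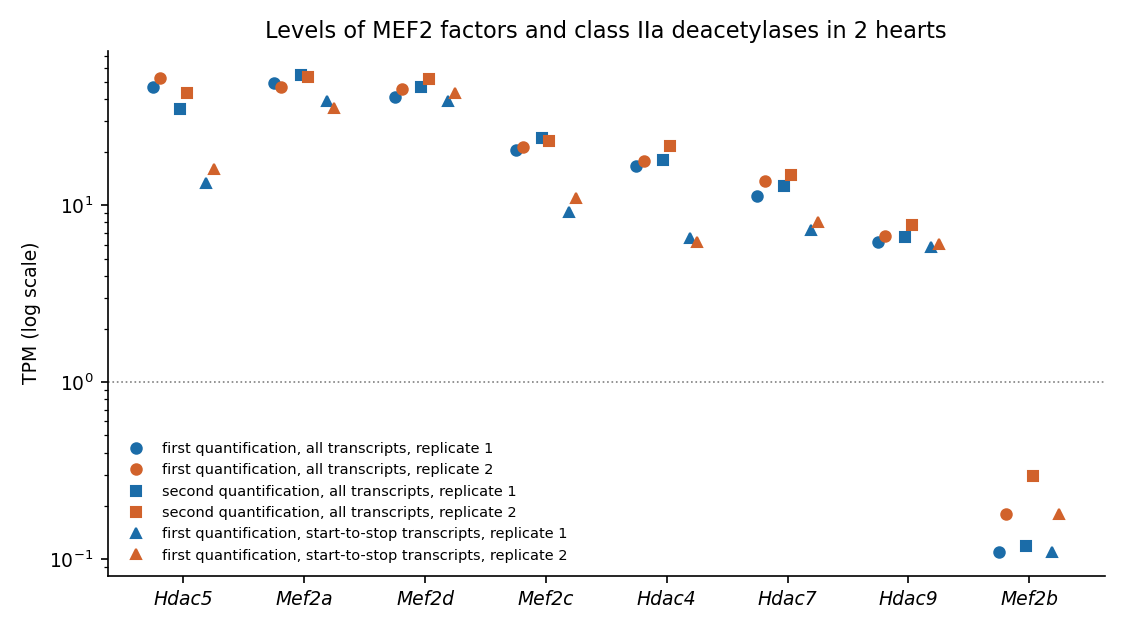
TPM on a log axis for each gene in each heart (blue replicate 1, orange replicate 2), as deposited in the first quantification (circles), in the second (squares), and summed over start-to-stop transcripts of the first (triangles). The dotted line marks 1 TPM. Mef2b lies below it at 0.11 and 0.18 TPM, and the triangles of Hdac5 lie far below its circles.

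In all, 7 of the 8 genes reached 1 TPM in both hearts, Mef2b being the exception, where 49.7% of the 22015 nuclear protein-coding genes did. Ordered by mean TPM the genes ran Hdac5 (49.4 ± 3.90), Mef2a (47.9 ± 1.84), Mef2d (43.1 ± 3.20), Mef2c (20.9 ± 0.594), Hdac4 (17.3 ± 0.778), Hdac7 (12.5 ± 1.72), Hdac9 (6.48 ± 0.339) and Mef2b (0.145 ± 0.0495). Of neighbours in this order, Hdac5 and Mef2a were the single pair whose values overlapped. The second quantification put Hdac5 at 35.0 and 43.0 TPM, below both values of Mef2a and of Mef2d. Among nuclear protein-coding genes ranked by mean TPM, Hdac5 was in place 1086, Mef2a 1130, Mef2d 1271 and Mef2c 2695. Hdac4 was in place 3214, Hdac7 4208, Hdac9 6557 and Mef2b 13643.

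Much of the Hdac5 TPM sat in transcripts that are not annotated to encode protein. Hdac5-211 and Hdac5-217, short entries of 754 and 650 nt that retain introns, held 23.9% ± 0.311 and 18.9% ± 0.184 of the gene's TPM. Retained-intron entries together took 54.0% of Hdac5 TPM in replicate 1 and 53.1% in replicate 2. Protein-coding transcripts of Hdac5 summed to 13.7 and 17.0 TPM, or 30.9% ± 2.31 of the gene. The leading one was Hdac5-204, with 26 coding exons, at 17.9% ± 0.962, followed by Hdac5-202 at 11.4% ± 2.11. Hdac5-205, annotated as a target of nonsense-mediated decay, which removes faulty messages, held 9.38% ± 1.32. The second quantification gave the intron-retaining entries less, 33.9% on average, and named Hdac5-204 first at 33.3% of the gene's TPM. Hdac5-205 at 16.4%, Hdac5-217 at 11.8%, Hdac5-212 at 8.02% and Hdac5-201 at 6.93% came next there. So protein-coding entries held a minority of Hdac5 TPM in both, at 47.9% in the second, where they were still the largest class. Their share depended on the method and on the unit. By expected counts of the first quantification, Hdac5-211 and Hdac5-217 had 248 and 164 in replicate 1, and 274 and 182 in replicate 2. Hdac5-204 alone had 1075 and 1118, of 2902 and 3281 for the gene.

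Hdac7 and Hdac4 also had TPM outside protein-coding entries, to a lesser degree. Hdac7 had 66.8% ± 3.99 of its TPM in protein-coding and 28.1% in intron-retaining entries, of which Hdac7-211 (21.1% ± 2.18) and Hdac7-213 (7.01% ± 0.0566) were the main ones. In the second quantification intron-retaining entries of Hdac7 took 14.8%, with Hdac7-211 at 6.45% and Hdac7-213 at 8.39%. Hdac4 had 72.9% ± 9.52 in protein-coding entries and 2.97% in intron-retaining ones. Hdac4-204, a processed transcript of 407 nt, held 20.1% ± 4.54 in the first quantification and 0% in the second. That share of TPM rested on few reads, 29.4 and 43.4 of the gene's 1843 and 1756 expected counts in replicates 1 and 2. In Hdac9 the protein-coding share was 93.6% ± 2.50, in Mef2a 95.1% ± 2.79, in Mef2c 95.9% ± 1.91 and in Mef2d 95.1% ± 0.575.

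**Figure D2:**
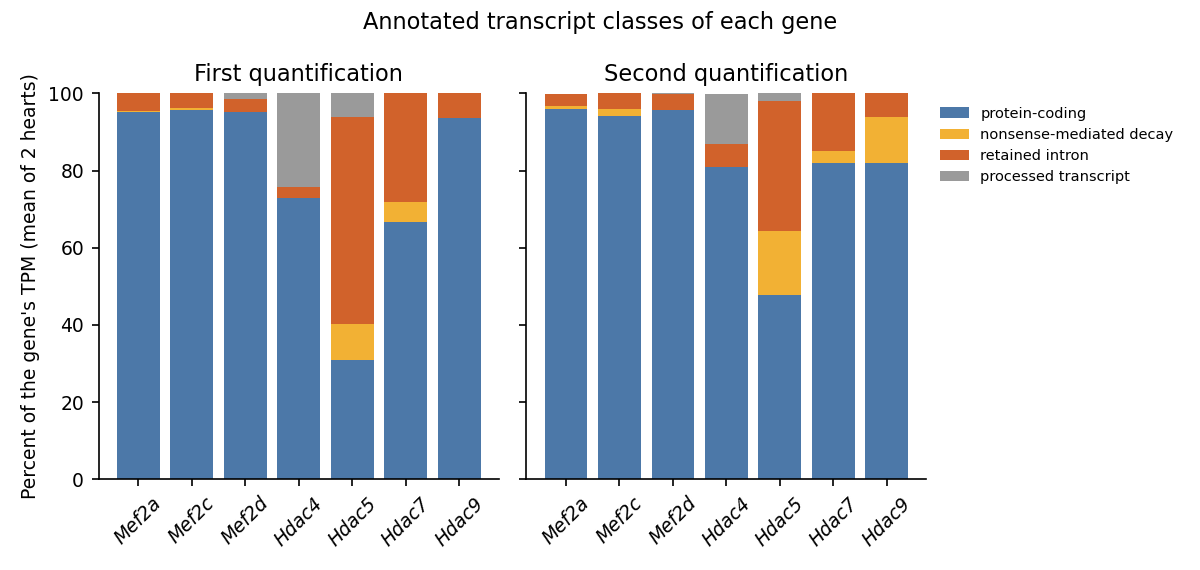
Percent of each gene's TPM (mean of 2 hearts) by annotated transcript class, in the first quantification (left) and the second (right); Mef2b is left out for its few reads. Retained-intron entries (orange) take over 50% of Hdac5 TPM on the left and 33.9% on the right, and under 5% in the 3 MEF2 genes.

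Some protein-coding entries are fragments that lack an annotated start or stop codon, and they can carry much TPM because they are short. Over transcripts annotated from start to stop codon, Mef2d led at 39.0 and 42.9 TPM, and Mef2a had 39.1 and 35.3 TPM, so these overlapped. Hdac5 stood at 14.7 ± 1.96 TPM, Mef2c at 10.045 ± 1.28, Hdac7 at 7.68 ± 0.566, Hdac4 at 6.37 ± 0.233 and Hdac9 at 5.96 ± 0.170. The order by total TPM was thus not the order over these transcripts. Mef2c kept 48.0% of its TPM and Hdac4 36.8% under this restriction, against 95.1% for Mef2d and 92.0% for Hdac9.

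The leading transcript of a gene was the same in both hearts for 7 of 8 genes, and the same in both hearts and both quantifications for 4, Mef2a, Mef2d, Hdac4 and Hdac9. Mef2a-208 held 57.1% ± 0.127 of Mef2a TPM and 52.0% in the second quantification. Mef2a-201 held 20.6% ± 2.78 in the first and 0.242% in the second, where Mef2a-203, with a coding sequence of the same length, took 21.3%. The fragments Mef2a-205 (17.5% ± 0.141 in the first) and Mef2a-210 (9.88% in the second) made up most of the rest. Mef2d was spread over 4 coding transcripts whose shares were close between the methods, with Mef2d-201 at 48.5% ± 1.70 and 45.7%, Mef2d-203 at 16.6% ± 2.08 and 16.3%, Mef2d-202 at 15.7% ± 0.382 and 16.1%, and Mef2d-204 at 14.3% ± 0.226 and 17.6%. All Mef2b reads were placed in Mef2b-201 by the first and in Mef2b-203 by the second.

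Mef2c, with 31 annotated transcripts, was the least settled of the MEF2 genes. Mef2c-212 led at 22.8% ± 2.65, before the fragment Mef2c-217 at 19.2% ± 2.20 and the full transcript Mef2c-201 at 13.4% ± 2.51. Mef2c-219 held 11.0% ± 4.54, and the fragments Mef2c-215 and Mef2c-230 10.2% ± 0.926 and 8.45% ± 6.87. In the second quantification Mef2c-212 at 16.7% and Mef2c-201 at 16.1% were close, Mef2c-217 led in replicate 2 with 19.7%, and Mef2c-215 was at 0%. Mef2c-206, Mef2c-216, Mef2c-222 and Mef2c-223 held from 5.20% to 8.50% there and under 3% in the first.

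Among the deacetylases, Hdac9-201, which has the short ending, held 59.0% ± 2.38 of Hdac9 TPM in the first quantification and 55.6% in the second. Hdac9-208 held 22.6% ± 4.58 and 6.94%, and Hdac9-203 1.26% ± 1.77 and 13.3%, and both of these also have the short ending. Among long forms Hdac9-206 held 5.76% ± 1.44 and 0%, and Hdac9-210, a decay target, 0% and 11.8%. The intron-retaining Hdac9-209 held 6.39% ± 2.33 and 6.13%. Hdac4-202, with 26 coding exons, led Hdac4 at 29.7% ± 3.45 and 28.5%, and Hdac4-201, with the same coding length, held 7.11% ± 0.453 and 7.58%. The fragments Hdac4-205 and Hdac4-206 followed at 18.5% ± 3.41 and 17.5% ± 3.10. In the second quantification they held 27.7% and 17.1%, and the processed transcripts Hdac4-207 and Hdac4-208 6.71% and 5.09%. In Hdac7 the transcripts Hdac7-202 (23.1% ± 3.51) and Hdac7-204 (20.6% ± 0.474) were close, and Hdac7-204 led in replicate 1 by 20.9% against 20.6%. Hdac7-205 held 9.41% ± 1.28, and Hdac7-208, Hdac7-212 and Hdac7-209 from 5.03% to 5.75%. In the second quantification Hdac7-202 held 31.9%, Hdac7-204 25.1%, Hdac7-205 12.7% and Hdac7-209 10.2%, while Hdac7-212 was at 3.29% and Hdac7-208 at 0%.

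The exon pairs of the 3 genes were then read from these transcripts. For each exon, the TPM of all protein-coding and decay-target transcripts that hold it without its alternative was added. These shares rest on whole-transcript estimates, not on reads over exon junctions, and the exons were chosen after the annotation and values had been seen. In Mef2a the first exon held 76.8% in replicate 1 and 80.2% in replicate 2, or 78.5% ± 2.38, and the second exon the remaining 21.5%. In Mef2d, where the second exon is known as the form of differentiated muscle, the first exon held 83.3% and 83.7%, and the second 16.5% ± 0.314. The Mef2d second exon is present in 1 annotated transcript, Mef2d-202, which spans 1767 nt against 5401 nt for Mef2d-201 with the first exon. The effect of this difference in length on the shares was not tested. Both genes kept this order in the second quantification, with 75.2% and 83.2% for the first exon.

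Mef2c gave no settled answer. Its first exon held 33.9% and 40.2% in replicates 1 and 2, or 37.0% ± 4.49, so the second exon led by TPM in both hearts. By expected counts, which are not scaled for length, the first exon led in both. It had 921 and 1129 counts, against 876 and 701 for the second exon. In the second quantification the first exon held 47.8% and 50.9%, on either side of an even split. Over start-to-stop transcripts of the first quantification it held 63.7%, so the leading exon of Mef2c turned with the transcripts that were summed. Mef2c-219, annotated from start to stop codon, was counted with neither exon and lies outside these shares. It held 11.0% of Mef2c TPM in the first quantification and 11.5% in the second.

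The short exon was mostly included in Mef2a, at 71.6% and 74.7% (73.1% ± 2.21), and mostly skipped in Mef2d, at 18.9% and 16.0% included (17.5% ± 2.09). The values of the 2 genes lay far apart in both hearts, and the second quantification gave 69.8% and 17.1%. Mef2c stood between them at 37.4% and 45.8% (41.6% ± 5.93), with 44.8% in the second quantification and 49.1% over start-to-stop transcripts. In the annotation the Mef2a first exon and short exon go together in Mef2a-208, and in Mef2d the short exon occurs in 1 transcript, Mef2d-203, so these shares are not independent of each other within a gene. Mef2d-203 spans 1791 nt, against 5401 nt for Mef2d-201 and 3488 nt for Mef2d-204, which skip the exon. Reads from sequence found only in those longer entries count as skipped in both quantifications. The effect of these lengths on the Mef2d shares was not tested. The last exon of Mef2c can keep or lose a stretch of 96 nt, known as the gamma region and for dampening of transcription. The long form held 53.2% and 52.1% in the first quantification and 66.0% and 72.6% in the second.

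**Figure D3:**
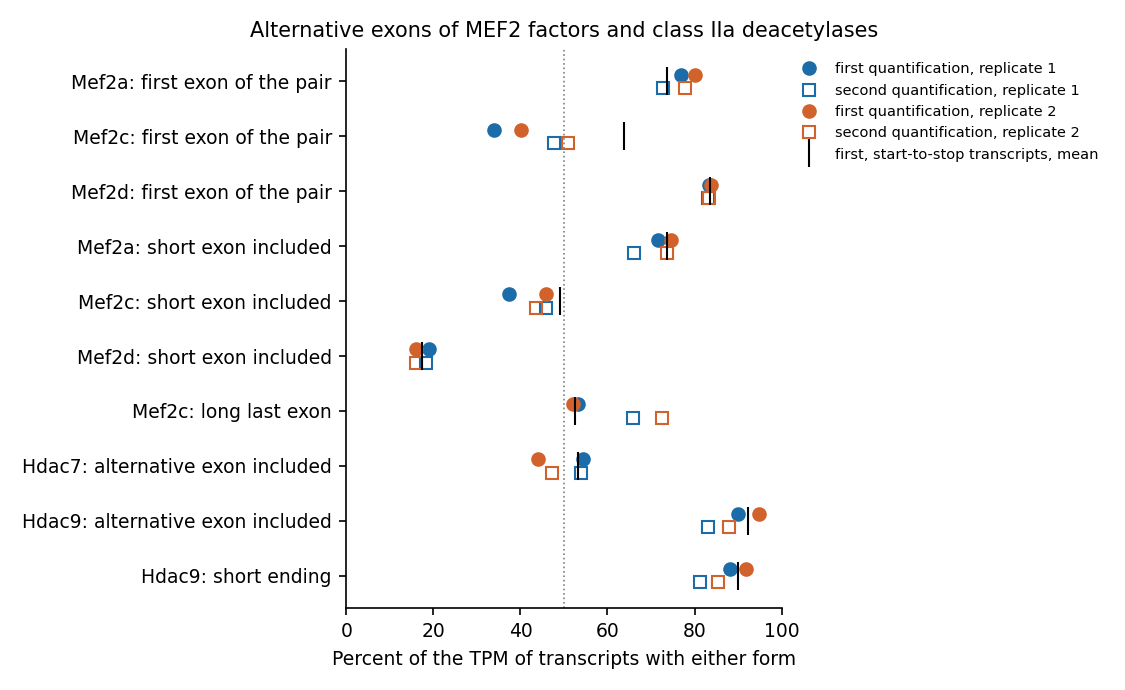
Share of each named exon form in the TPM of transcripts with either form, per heart (blue replicate 1, orange replicate 2), in the first quantification (filled circles) and the second (open squares), with start-to-stop transcripts alone as a black bar; the dotted line is at 50%. In each Mef2a and Mef2d row all marks keep to 1 side of the line, and those of the Mef2c pair fall on both sides.

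Hdac9 messages mostly had the short ending without the deacetylase domain. Transcripts with the short ending held 88.2% in replicate 1 and 91.8% in replicate 2 (89.98% ± 2.54), on 622 and 654 expected counts. The long ending, which leads into the deacetylase domain, held 11.8% and 8.22%, on 113 and 80.3 expected counts. The hearts gave nearly the same split, and the second quantification gave the short ending 81.3% and 85.3%. In TPM the short forms summed to 5.15 and 5.58, and the long forms to 0.69 and 0.50. An upstream coding exon of 132 nt was included at 92.4% ± 3.30, with 85.5% in the second quantification. In Hdac7 a coding exon of 111 nt was included at 54.4% in replicate 1 and 44.1% in replicate 2, so neither form led in both hearts. A pair of Hdac5 exons of 255 nt in all was included at 99.5% ± 0.141.

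Between the hearts 7 of the 8 genes differed little, and Mef2b had too few reads to place. Differences are given as the log2 ratio of replicate 2 over replicate 1 from expected counts, scaled with TMM (a library-size correction from edgeR), with a 95% counting interval that covers counting error only. Of the 7 genes whose expected counts averaged at least 50, 0 differed 2-fold, where 1.28% of 12541 genes with such counts did, 1.00% toward replicate 1 and 0.279% toward replicate 2. This is a rule of size and not a test. The interval lay off 0 for 5 of the 7 genes, where 32.3% of all such genes had such an interval, but the ratios were small. The median absolute ratio over the 12541 genes was 0.11, and 90% of them were under 0.39.

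Mef2a had 6473 and 6109 expected counts, a ratio of -0.13 (-0.18 to -0.08). Mef2d had 4910 and 5600, a ratio of 0.14 (0.09 to 0.20). The 2 leading MEF2 genes thus differed between the hearts in opposite directions, each by about as much as the median gene. Mef2c had 1921 and 2069 counts and a ratio of 0.06 (-0.03 to 0.15), and Mef2b 0.64 (-1.21 to 2.98), an interval too wide to place it. Hdac7 showed the largest ratio among the 7 at 0.20 (0.09 to 0.31), with 1269 and 1501 counts. Hdac5 had 2902 and 3281 counts and stood at 0.13 (0.06 to 0.20). Hdac9, with 773 and 802 counts, stood at 0.01 (-0.14 to 0.15). For Hdac4 the direction depended on the unit. Its expected counts were 1843 and 1756, a ratio of -0.11 (-0.21 to -0.02), while its TPM was higher in replicate 2. Processed transcripts held 29.6% of the gene's TPM there against 18.8% in replicate 1. They had few expected counts, 29.4 and 43.4 for Hdac4-204 and 3.30 and 11.7 for Hdac4-207. Over protein-coding transcripts Hdac4 had 13.3 and 11.8 TPM, but 15.4 and 16.4 TPM in the second quantification.

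**Figure D4:**
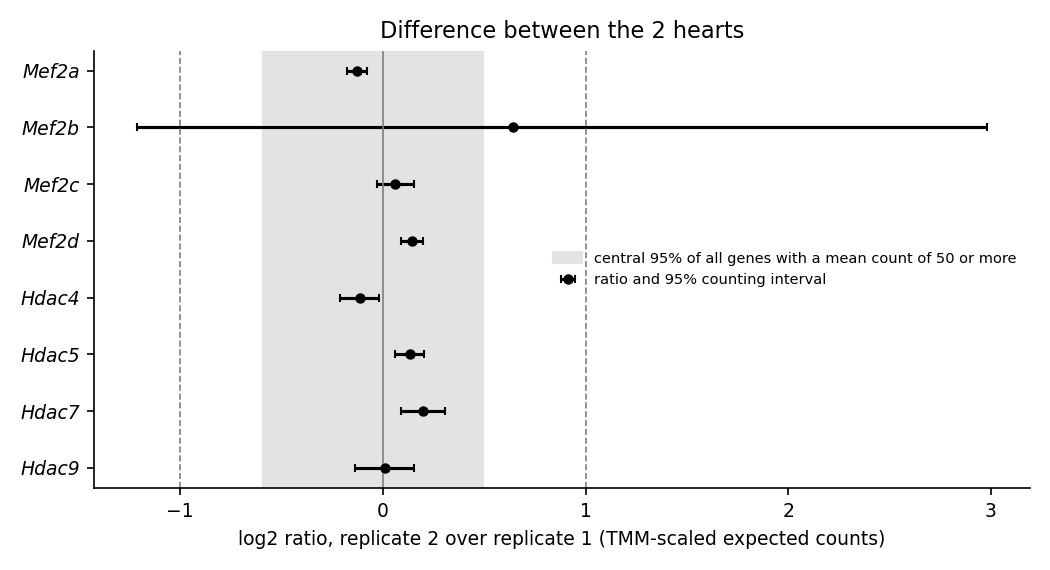
The log2 ratio of replicate 2 over replicate 1 per gene (points) with its 95% counting interval (bars), over the central 95% of genes with a mean count of 50 or more (grey band, -0.59 to 0.50); dashed lines mark 2-fold. All points but Mef2b lie inside the band, between -0.13 and 0.20.

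RNA of fat and red blood cell markers differed between the libraries. All 4 adipocyte markers with a mean count of 50 or more and 3 of 3 erythroid markers lay past 2-fold toward replicate 1. Summed adipocyte levels were 61.0 and 4.00 TPM and erythroid levels 13377 and 6206 TPM, none of the markers being at 0 in both hearts. All 6 cardiomyocyte markers were detected, with a median ratio of 0.08, and skeletal muscle markers summed to 1.27 and 1.44 TPM. Smooth muscle, fibroblast and macrophage markers were all detected, with median ratios of -0.03, -0.07 and -0.0017, and 1 of 4 neuronal and Schwann markers was. Endothelial markers had a median ratio of -0.01, with Kdr and Egfl7 at 0.43 and 0.55 and Pecam1, Tek, Cdh5 and Tie1 at -0.16, -0.05, -0.02 and -0.0040. The part of these in the ratios of the MEF2 and deacetylase genes, Hdac7 included, was not tested. Some other genes overlap exons of these genes. Lysmd4 shares 302 bases with Mef2a, Slc48a1 29 with Hdac7, Gm26720 3536 with Hdac4 and 1700113A16Rik 531 with Mef2d, all on the opposite strand. The libraries were stranded, but whether strand was used in counting was not stated. Lysmd4 had 500 and 538 expected counts, Slc48a1 1697 and 1791, 1700113A16Rik 6 and 0, and Gm26720 0 in both. Mir8101, which lies within Hdac5 on its strand, had 0.

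The enzymes and partners around these genes were nearly all present. Of 17 kinases known to phosphorylate class IIa deacetylases, 16 reached 1 TPM in both hearts. Camk2d, the main cardiac calcium/calmodulin kinase, was highest at 52.9 ± 1.74 TPM, before the broadly expressed Camk1 at 28.5 ± 0.615 and Prkaa2, the muscle form of the AMP-activated kinase, at 27.9 ± 1.27. Camk4, known from lymphocytes and neurons, was lowest at 0.08 ± 0.0283 TPM. Sik1, a salt-inducible kinase, was the single one past 2-fold, with 21.1 and 8.86 TPM and a ratio of -1.23 (-1.33 to -1.14). The 16 kinases with enough counts had a median ratio of -0.02, beside 0.0010 over all 15749 genes with a mean count of 10 or more and 0.06 over the 7 MEF2 and deacetylase genes.

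Of the 7 14-3-3 genes, which encode the cytoplasmic anchors, 6 were detected and 0 differed 2-fold. Ywhae led at 206 ± 1.20 TPM, then Ywhag at 106 ± 4.37 and Ywhaz at 49.7 ± 4.75, while Sfn, an epithelial form, was at 0.54 ± 0.0141. Their median ratio was -0.19, the furthest from 0 of the 6 gene lists under TMM scaling. With spike-in scaling it was -0.11, nearer to 0 than the 0.14 of MEF2 targets. Under that scaling the median of all genes was itself 0.07, and the 14-3-3 median lay further from it than that of MEF2 targets. All 11 corepressor partners were detected and 0 differed 2-fold, with a median of 0.02. Ctbp1, a corepressor, stood at 79.3 ± 0.636 TPM, Ncor1, a scaffold that brings Hdac3 to class IIa deacetylases, at 48.8 ± 0.856, its partner Tbl1xr1 at 30.7 ± 1.39 and Rfxank, the lowest, at 6.80 ± 0.622. The other deacetylases were all detected, 7 of 7, and none passed 2-fold, with a median of -0.01. Hdac2 had 20.5 ± 1.35 TPM, Hdac3 15.9 ± 1.38 and Hdac1 6.82 ± 0.417, and Hdac8 was lowest at 1.57 ± 0.552. By total TPM, Hdac5, Mef2a and Mef2d stood above each of these 7 in both hearts.

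All 12 coactivators and activating enzymes were detected and 0 differed 2-fold, with a median of -0.02. Myocd, a heart and smooth muscle coactivator, was highest at 28.1 ± 3.47 TPM, before the calcineurin subunits Ppp3r1 at 25 ± 0.0141 and Ppp3cb at 23.4 ± 0.544. Mamstr, a MEF2 coactivator of skeletal muscle, was lowest at 1.57 ± 0.0141. Of 20 genes known as MEF2 targets, 18 were detected, led by Myh6 (8077 ± 617 TPM), Mb (6458 ± 373) and Myl2 (6400 ± 401), genes of contraction and oxygen storage. The second quantification put Myl2 first at 13936 TPM, then Mb at 8181 and Myh6 at 7523. Dio3, which inactivates thyroid hormone, was lowest at 0.01 ± 0.0141 TPM. The list median was 0.07. Nr4a1, an immediate early gene, had 1336 and 157 counts, a ratio of -3.13 (-3.38 to -2.89), and Klf2, an endothelial factor, 2208 and 921 counts, a ratio of -1.31 (-1.42 to -1.19). Both lay past 2-fold toward replicate 1 and 0 of the 20 toward replicate 2, beside ratios of -0.13 for Mef2a and 0.14 for Mef2d (-0.05 and 0.22 with spike-in scaling).

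**Figure D5:**
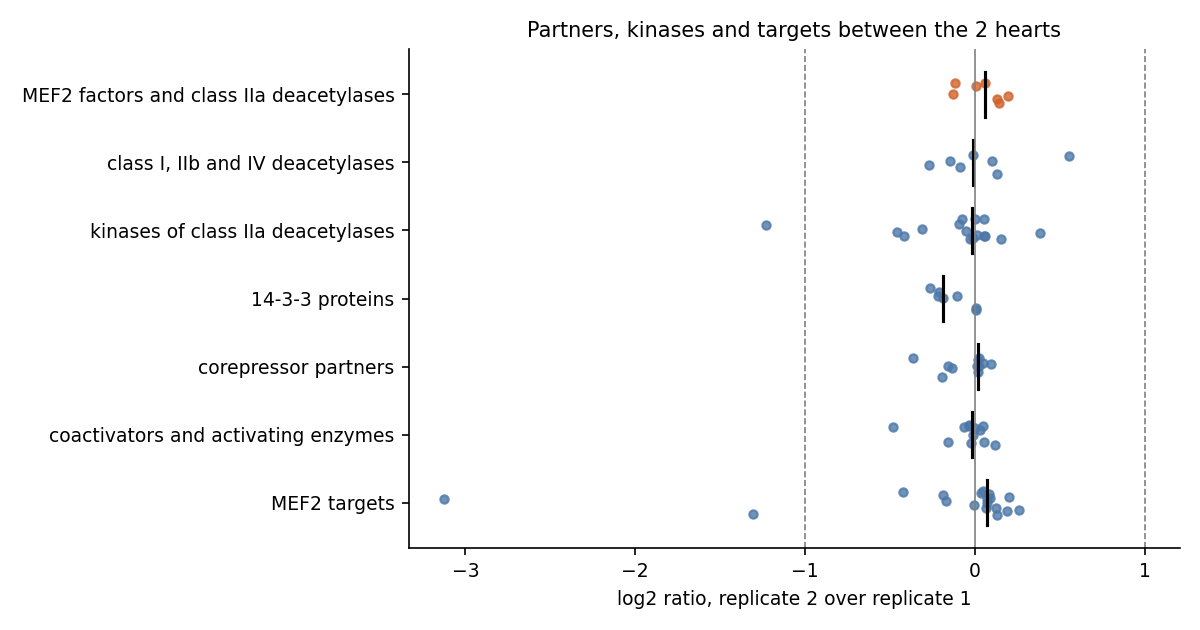
The log2 ratio of replicate 2 over replicate 1 for each gene with a mean count of 10 or more (points, spread vertically for sight), by gene list, with the list median as a black bar and dashed lines at 2-fold. The points of Sik1 at -1.23, Klf2 at -1.31 and Nr4a1 at -3.13 lie beyond the dashed line, and those of the MEF2 and deacetylase genes stay between -0.13 and 0.20.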

How the data were processed

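Total RNA of 2 biological replicates, called hearts here, was measured. The authors deposited expected counts of genes and transcripts (first quantification, on mm10 with GENCODE M21 per the labels and sample notes), together with TPM, FPKM and each transcript's percent of its gene's TPM. Estimated counts and TPM of a second quantification were also deposited by the authors and were summed per gene here. Both were made with tools not given in the sources used here. The libraries held 41846508 and 42481559 expected counts, where a gene with no count could still have 3, a limit of 0.0717 and 0.0706 CPM. The effect of CAST alleles on mapping was not tested.

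Expected counts were rounded and scaled with TMM (edgeR 4.0.16 in R 4.3.3). Ratios used a prior count of 1 and exact Clopper-Pearson 95% intervals, which cover counting error only, since reads were not tagged by molecule. The 2-fold rule needed a mean expected count of 50, list medians one of 10. The ratio, its interval and the 2-fold rule were tested on simulated gene counts with counting error only. Transcript and exon shares were not part of that simulation. The libraries differed by more than counting error (chi-square per gene 29.6), so they are not 1 library deposited again.

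The text names the 8 genes, their transcripts with 5% or more of the gene's TPM in either quantification, genes overlapping their exons, and of each list the 3 highest, the lowest and those past 2-fold. The alternative exons and the endothelial markers were named after their values were seen. This set of genes and the lists were chosen with earlier results of these data known, although the genes were matched by symbol alone. Exon letters were read from the GENCODE M21 transcripts, and exons aligned globally with Biopython 1.88. Protein sequences were not used here, and the sequence of 1 exon pair is not reported here. Alternatives were other scalings (library totals, DESeq2 1.42.0 size factors, spike-ins), thresholds, FPKM, the second quantification and each heart alone. For levels, TPM scaled over nuclear protein-coding genes alone was a further one.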

Additional observations from a re-analysis of the deposited data

How the results depend on the processing

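No paired analysis was possible because there is 1 group. With 2 libraries the SD is itself uncertain, and short or incomplete transcript entries limit every share below the gene. At 5 TPM and in the second quantification 7 genes were again detected, and 8 at 0.1 TPM. Under each alternative run 0 genes met the 2-fold rule, and 0 a 1.5-fold rule, although the Mef2b ratio, on few reads, was 1.10 in the second quantification. Of 8 places in the order of levels, 5 were kept in the second quantification and 4 over protein-coding transcripts (6 to 8 in a lone heart). Scaled over nuclear protein-coding genes alone, mean levels were higher, at 130.8 for Hdac5, 126.7 for Mef2a and 0.383 for Mef2b. The order of the genes stayed as it was. The Hdac5 share, 57.7%, was 43.7% by expected counts, 48.9% in the second quantification and 36.1% over protein-coding transcripts (57.67% to 57.69% in a lone heart). The Mef2a share was 46.5% by expected counts (41.1% to 44.5% in a lone heart). The first exon of Mef2a was 75.2% in the second quantification and 73.6% over start-to-stop transcripts (76.8% to 80.2% in a lone heart), and that of Mef2c 49.3% and 63.7% (33.9% to 40.2% in a lone heart). The Hdac9 short ending was 83.3% in the second quantification (88.2% to 91.8% in a lone heart). The Hdac9 ratio changed sign within its interval in the second quantification, at -0.0079. Spike-in scaling moved the median of all genes to 0.07, the Mef2a, Mef2d and Hdac5 ratios to -0.05, 0.22 and 0.21, and the list medians of kinases and coactivators to 0.05 and 0.06. Levels and family shares over protein-coding transcripts, start-to-stop transcripts and all exon shares were chosen after seeing the data. Of the other values, 123 were classed as moved by less than their bound and 46 by more. Those 46 include inclusion shares that stayed at 100% in a lone heart, of coding stretches of 144 nt in Hdac7 and 261 nt in Hdac9.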
